A study of Rattus norvegicus with 9 samples.

Results

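Vasopressin, oxytocin and 7 further genes linked to the neurons that make these hormones were examined in the hypothalamus of 9 male rats aged 13 weeks. RNA came from bulk tissue, so no value is read from these neurons alone. The 9 genes, of 14217 named by a single symbol on the array, were taken by symbol: the hormone genes Avp and Oxt, the opioid precursor gene Pdyn, the regulators Creb3l1, Caprin2 and Rasd1, the granule protein genes Vgf and Scg2, and Nos1. They are read by 10 probe sets, 2 of them for Pdyn and 1 for each other gene. Of the rats, 4 ate a noodle diet (numbered 1, 4, 7 and 13) and 5 ate the control diet (2, 5, 8, 11 and 14). The noodle diet held 30% instant noodle by weight and drew 26% of its energy from fat. According to the series description the control diet was the same but for the seasonings. Feeding lasted 30 days in one label and 4 weeks in another, rats were pair-fed about 60 g of food per kg daily, and water was free. Each array is 1 rat. The sources used here give no strain, salt content of the diets, water intake, plasma sodium or hour of dissection.

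Vasopressin and oxytocin are short peptides cut from larger precursors that also hold a carrier protein, neurophysin. Large (magnocellular) neurons of the supraoptic and paraventricular nuclei make them and release them from the posterior pituitary, vasopressin to retain water and oxytocin for milk ejection, parturition and, in rats, sodium excretion. Salt loading and dehydration are known to raise transcripts of both hormones and of several regulators and granule proteins in these neurons, and vasopressin is also made in the suprachiasmatic nucleus. The comparison asks whether seasonings, which in instant noodles include salt, go with a change in these transcripts.

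Avp and Oxt lie next to each other on chromosome 3 on opposite strands, with 0 annotated genes between them. Over the 9 rats their levels gave a Pearson's r of 0.87, and Spearman's rho of 0.73 (adjusted exact permutation p = 0.0934). Whether their position plays a part was not tested. The windows from 250 bases before to 50 after the annotated start site are shown for these neighbours, and for Scg2 and Vgf, the other members whose array values varied. Sequences and positions are from RefSeq, build GRCr8: Avp at chr3:138248473-138248772 (minus strand), Oxt at chr3:138235504-138235803 (plus strand), Scg2 at chr9:88256817-88257116 (minus strand) and Vgf at chr12:25276971-25277270 (minus strand). Each is written 5′ to 3′ on the gene's strand, with capitals marking matches on either strand to TGACGTCA (the cAMP response element), CACGTG (an E-box) or AGGTCA and its complement TGACCT (a nuclear receptor half-site).
Avp: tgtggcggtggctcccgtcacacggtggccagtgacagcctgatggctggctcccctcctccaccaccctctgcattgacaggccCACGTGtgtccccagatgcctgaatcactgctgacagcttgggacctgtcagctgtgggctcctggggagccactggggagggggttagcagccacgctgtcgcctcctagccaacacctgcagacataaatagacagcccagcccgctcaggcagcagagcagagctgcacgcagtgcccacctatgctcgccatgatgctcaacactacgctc
Oxt: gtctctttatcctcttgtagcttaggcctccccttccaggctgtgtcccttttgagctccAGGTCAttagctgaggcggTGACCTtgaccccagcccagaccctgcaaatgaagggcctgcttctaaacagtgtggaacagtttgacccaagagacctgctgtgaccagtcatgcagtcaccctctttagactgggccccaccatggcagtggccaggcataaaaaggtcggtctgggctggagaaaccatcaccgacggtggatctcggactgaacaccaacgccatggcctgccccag
Scg2: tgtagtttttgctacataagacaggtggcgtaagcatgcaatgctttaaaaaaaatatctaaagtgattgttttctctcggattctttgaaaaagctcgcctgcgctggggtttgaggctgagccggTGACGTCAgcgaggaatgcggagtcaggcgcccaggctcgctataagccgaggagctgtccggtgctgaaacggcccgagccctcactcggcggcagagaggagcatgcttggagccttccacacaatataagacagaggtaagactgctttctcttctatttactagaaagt
Vgf: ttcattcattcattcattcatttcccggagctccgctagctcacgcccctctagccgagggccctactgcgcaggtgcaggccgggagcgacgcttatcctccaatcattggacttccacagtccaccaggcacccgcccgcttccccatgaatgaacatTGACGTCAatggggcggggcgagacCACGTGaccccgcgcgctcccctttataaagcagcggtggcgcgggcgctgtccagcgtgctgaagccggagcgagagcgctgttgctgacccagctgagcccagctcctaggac

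The Avp window held 1 E-box, which begins at base -165 counted from the start site, and the Oxt window held 2 half-sites, at -190 and -171. Scg2 held a cAMP response element at -123. Vgf held one at -90 and an E-box at -65. Of 33469 windows of the same length in the table, 1.83% hold the cAMP response element, 6.42% the E-box and 16.2% a half-site. The matches in these windows do not overlap each other. Of the remaining members, the Nos1 window held a cAMP response element and a half-site, the Rasd1 window a half-site, and those of Pdyn, Creb3l1 and Caprin2 none of the 3 motifs. A match is a match of letters and was not tested as a binding site.

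Values are the log2 values that the authors deposited, and most of them hardly differ between animals. Over 31042 probe sets the median range across the 9 rats was 0.000518 log2 units, and 1223 (3.94%) ranged over more than 0.05, here called variable; 29759 (95.9%) ranged over less than 0.01, here called compressed. The probe sets of Avp, Oxt, Scg2 and Vgf were variable, 4 of the 10 of this gene set. The other 6, of Pdyn, Creb3l1, Caprin2, Rasd1 and Nos1, ranged over 0.000332 to 0.000784. The sources used here do not say how the values were made, so a compressed value cannot be read as an unchanged transcript. The array medians lay between 6.777 and 6.785, and all 9 arrays were kept. Correlations between arrays over all probe sets (0.997 to 0.999) cannot show whether an array stands apart, because most values are compressed. Over the 1223 variable probe sets, noodle-diet rat 1 was the highest of the 9 rats in 28.1% and the lowest in 10.8%, control rat 8 was the highest in 23.1%, and control rat 14 was the lowest in 25.0%. Labelled tissue was checked by peptides of hypothalamic neurons: Pmch (melanin-concentrating hormone) lay between 12.10 and 12.32 in noodle-diet rats and between 11.85 and 12.37 in control rats. Hcrt (orexin), the other peptide gene of the lateral hypothalamus on the list, lay between 9.65 and 10.05 in noodle-diet rats and between 8.75 and 10.04 in control rats, lowest in control rat 2.

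**Figure D1:**
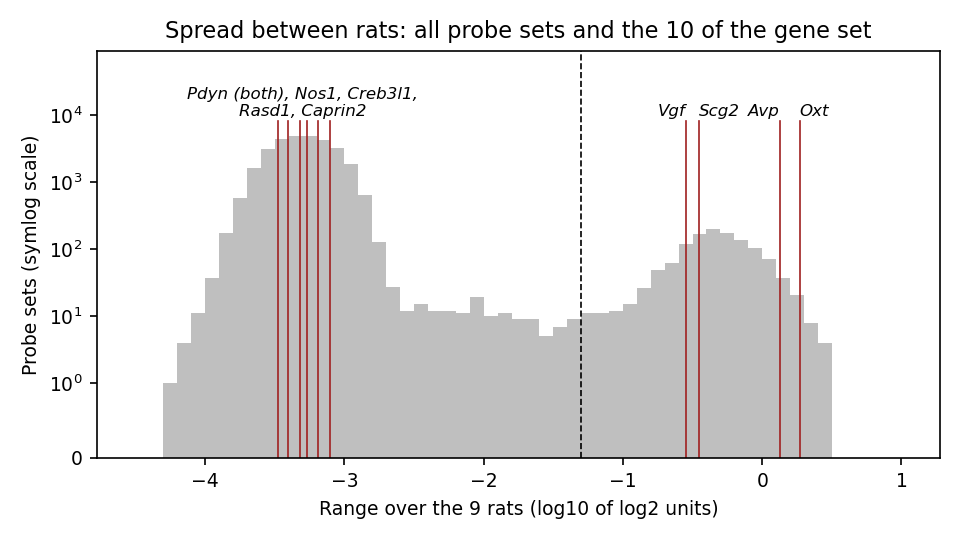
Number of probe sets (symlog axis) by the range of their log2 values across the 9 rats (log10 of log2 units). Red lines mark the 10 probe sets of the 9 genes and the dashed line the limit of 0.05: Vgf, Scg2, Avp and Oxt lie in the variable group on the right, with ranges of 0.284, 0.353, 1.35 and 1.85, and the other 6 lie in the compressed group on the left.

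None of the 4 variable members differed between the diets beyond the spread between rats. The other 5 genes, whose probe sets were compressed, are counted below but could not be judged. By limma, 0 of the 10 probe sets had an adjusted p under 0.05, where the share called over all 31042 probe sets was 0%. At an unadjusted p under 0.05 there were 0 of the 10, against 2.29% of all probe sets. In 0 of the 10 did the diets separate without overlap, against 0.567% of all probe sets. Among variable probe sets alone the shares were 0.899% with an unadjusted p under 0.05 and 0.0818% without overlap, against 0 of the 4 variable members for both. The smallest adjusted p over the whole table was 0.999995, which was also the adjusted p of each member. Of the variation between the 9 rats, 3.48% lay between the diets for Avp, 0.0234% for Oxt, 7.69% for Scg2 and 14.9% for Vgf. Some share lies between groups even without a diet effect, and these shares are not corrected for that.

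Avp, which encodes vasopressin and its neurophysin, read 10.49, 11.64, 11.79 and 11.84 in noodle-diet rats 1, 4, 7 and 13. In control rats 2, 5, 8, 11 and 14 it read 10.91, 11.35, 11.78, 11.03 and 11.31. The 2 highest and the lowest of the 9 values were all on the noodle diet, and the diets overlapped. The means were 11.44 ± 0.64 in noodle-diet rats (SD, n = 4) and 11.28 ± 0.34 in control rats (SD, n = 5), a difference of 0.17 (SE 0.31, limma adjusted p = 0.999995). The 95% interval ran from -0.56 to 0.89, which on the deposited scale spans 0.679-fold to 1.85-fold. Noodle-diet rat 1 moved this value most. Without it the other 3 noodle-diet rats lay above 4 of the 5 control rats, and the difference was 0.48 (SE 0.19, limma unadjusted p = 0.0426, adjusted p = 0.999987; 95% interval 0.021 to 0.94). This SE and interval draw partly on the spread of all probe sets, most of them compressed. That the interval excludes 0 therefore does not rest on the Avp values of these rats alone. Without noodle-diet rat 4, 7 or 13 it was 0.098, 0.047 or 0.033, without control rat 2 or 11 it was 0.073 or 0.10, and without control rat 8 it was 0.29. With any 1 rat left out the limma adjusted p lay between 0.999566 and 0.999998. With limma's array weights, which give each array its own weight in the fit, the difference was 0.36.

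Oxt, the oxytocin precursor gene, read 8.66, 10.21, 10.52 and 10.32 in noodle-diet rats 1, 4, 7 and 13. Control rats 2, 5, 8, 11 and 14 gave 9.45, 9.39, 10.51, 9.72 and 10.48. The lowest and the highest value were both on the noodle diet, and its other 3 rats lay near control rats 8 and 14. The means were 9.93 ± 0.85 in noodle-diet rats (SD, n = 4) and 9.91 ± 0.55 in control rats (SD, n = 5), a difference of 0.019 (SE 0.44, limma adjusted p = 0.999995) with a 95% interval of -1.01 to 1.05. On the deposited scale that interval spans 0.497-fold to 2.06-fold, so differences within it are compatible with these values. The interval is not a detection limit, and larger changes could also miss the threshold. The direction depended on single rats. The difference was 0.44 without noodle-diet rat 1, 0.17 without control rat 8 and 0.16 without control rat 14. It was -0.076, -0.18 and -0.11 without noodle-diet rats 4, 7 and 13, and -0.095, -0.11 and -0.030 without control rats 2, 5 and 11. With array weights it was 0.26.

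**Figure D2:**
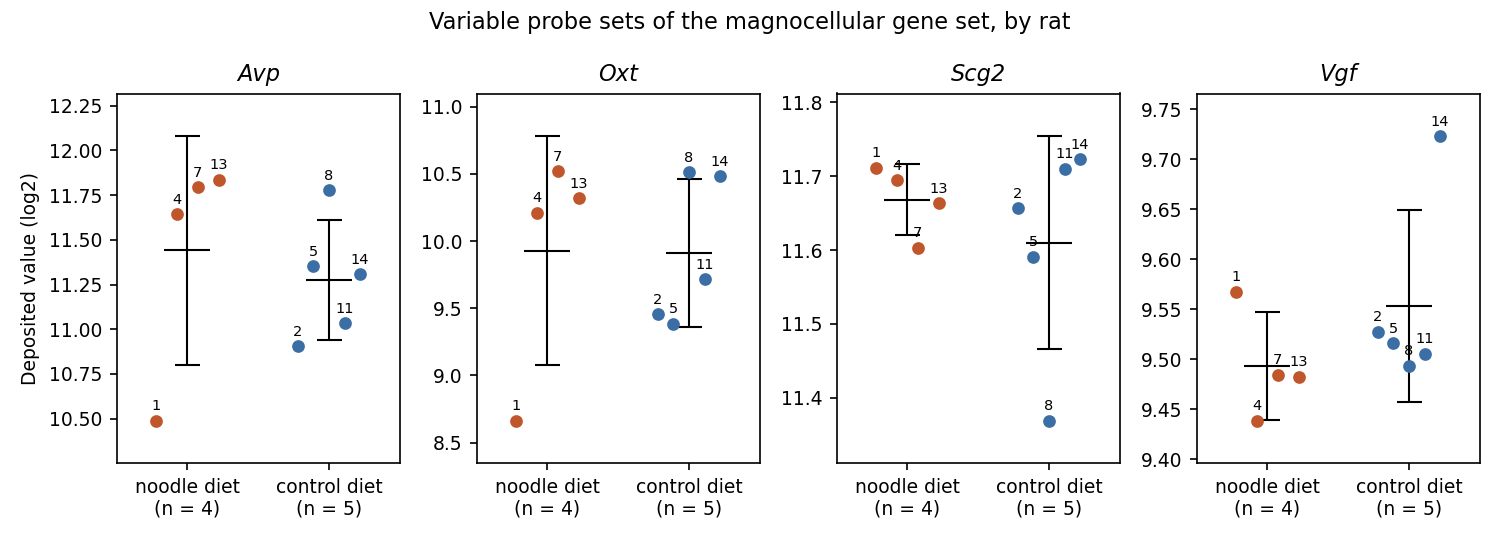
Deposited log2 values of Avp, Oxt, Scg2 and Vgf in each rat (points, numbered by rat), noodle diet left (n = 4) and control diet right (n = 5), with mean and SD in black; each panel has its own scale. Noodle-diet rat 1 is lowest for Avp (10.49) and Oxt (8.66), control rat 8 is lowest for Scg2 (11.37) and control rat 14 highest for Vgf (9.72).

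Scg2 encodes secretogranin II, a granin of dense-core vesicles. It read 11.71, 11.69, 11.60 and 11.66 in noodle-diet rats 1, 4, 7 and 13, against 11.66, 11.59, 11.37, 11.71 and 11.72 in control rats 2, 5, 8, 11 and 14. All values but that of control rat 8 lay within a narrow band shared by both diets. The means were 11.67 ± 0.048 in noodle-diet rats (SD, n = 4) and 11.61 ± 0.14 in control rats (SD, n = 5), a difference of 0.058 (SE 0.072, limma adjusted p = 0.999995; 95% interval -0.11 to 0.23). Without control rat 8 the difference was -0.0021.

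Vgf encodes a granin-like secreted protein from which several peptides are cut. Its values were 9.57, 9.44, 9.48 and 9.48 in noodle-diet rats 1, 4, 7 and 13, against 9.53, 9.52, 9.49, 9.51 and 9.72 in control rats 2, 5, 8, 11 and 14. Noodle-diet rats 4, 7 and 13 lay below every control rat and rat 1 above all of them but rat 14. The means were 9.49 ± 0.054 in noodle-diet rats (SD, n = 4) and 9.55 ± 0.096 in control rats (SD, n = 5), a difference of -0.060 (SE 0.051, limma adjusted p = 0.999995; 95% interval -0.18 to 0.059). Without control rat 14 the difference was -0.017 and without noodle-diet rat 1 it was -0.084, and neither passed.

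**Figure D3:**
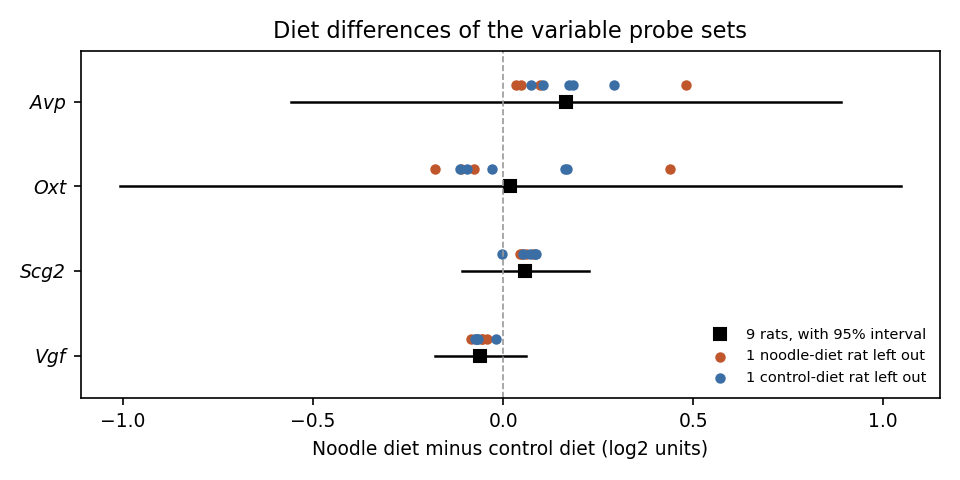
Difference in log2 units, noodle diet minus control diet, of the 4 variable probe sets (squares, with the 95% interval of the limma fit on 9 rats), and the same difference with 1 rat left out (points, coloured by that rat's diet). All 4 intervals include 0; leaving out noodle-diet rat 1 gives the point farthest right for Avp (0.48) and Oxt (0.44).

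The remaining members had compressed probe sets, and their differences are given only for completeness. Pdyn, the precursor of dynorphins that vasopressin neurons store beside the hormone, read 7.11138 to 7.11217 in noodle-diet rats and 7.11164 to 7.11182 in control rats with one probe set. With the other it read 9.17469 to 9.17503 in noodle-diet rats and 9.17476 to 9.17483 in control rats. Creb3l1, a membrane-bound transcription factor described in rats as an activator of the Avp gene, read 6.76215 to 6.76237 in noodle-diet rats and 6.76208 to 6.76256 in control rats. The dietary groups overlapped in each of these probe sets.

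Caprin2, an RNA-binding protein described in rats as acting on the vasopressin mRNA, read 8.00417 to 8.00479 in noodle-diet rats and 8.00414 to 8.00439 in control rats. Its limma unadjusted p of 0.144 was the lowest of the 10 probe sets (adjusted p = 0.999995), at a difference of 0.00020. Rasd1, a glucocorticoid-induced Ras-like protein, read 7.75571 to 7.75583 in noodle-diet rats and 7.75565 to 7.75619 in control rats. Nos1, which makes nitric oxide in magnocellular neurons, read 6.08402 to 6.08441 in noodle-diet rats and 6.08414 to 6.08437 in control rats. Differences over the 6 compressed probe sets lay between -5.3e-05 (Nos1) and 0.00020 (Caprin2), and the directions of all 6 turned under at least 1 other normalization or array weighting, Nos1 and Creb3l1 among them.

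Avp and Oxt varied together from rat to rat. Noodle-diet rat 1 was lowest for both, and noodle-diet rat 7 and control rat 8 were among the 3 highest for both. Control rat 14 stood just below the median for Avp but among the 3 highest for Oxt, and control rat 5 was next to lowest for Oxt but at the median for Avp. Over the 9 rats Pearson's r was 0.87 (exact permutation p = 0.0031, adjusted over 6 pairs of variable members 0.0186), and Spearman's rho was 0.73 (exact permutation p = 0.0311, adjusted 0.0934). For deviations from the diet means r was 0.89. Leaving out noodle-diet rats 1 and 13, farthest from the Avp median, gave r = 0.75 with an exact permutation p of 0.0708. With 1 rat left out r lay between 0.75 and 0.94. The adjusted exact permutation p missed the threshold when noodle-diet rat 1 was left out (0.258), and likewise for control rats 2 (0.0604) and 11 (0.0522). Each diet holds too few rats for a correlation of its own. RNA came from bulk tissue, in which fewer cells of a type and less RNA per cell cannot be told apart.

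**Figure D4:**
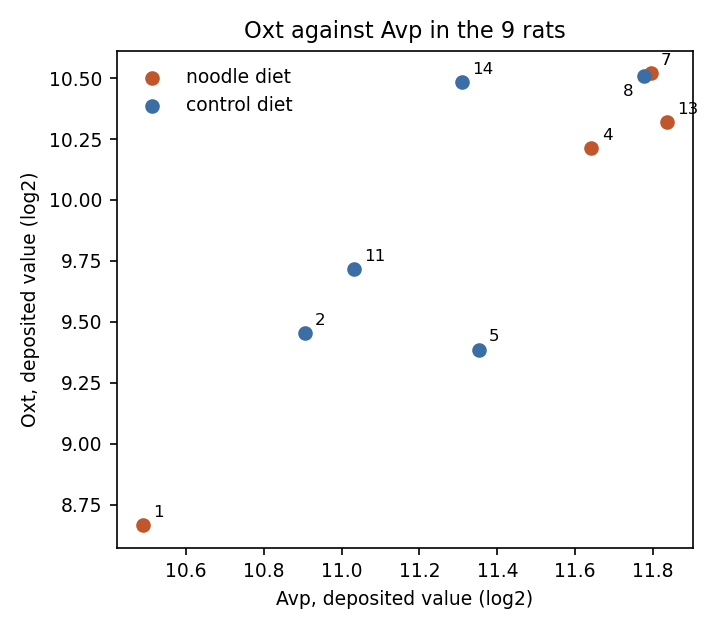
Oxt against Avp (deposited log2 values) in the 9 rats, coloured by diet and numbered by rat. Noodle-diet rat 1 lies at the lower left (10.49 for Avp, 8.66 for Oxt), noodle-diet rats 4, 7 and 13 and control rat 8 at the upper right, and control rat 14 has the Oxt value of the upper group at a middling Avp value.

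Within each rat the Avp value minus the Oxt value compares the hormones on a scale on which a shift shared by both cancels. It was 1.82, 1.43, 1.27 and 1.52 in noodle-diet rats 1, 4, 7 and 13, against 1.45, 1.97, 1.27, 1.32 and 0.825 in control rats 2, 5, 8, 11 and 14. The means were 1.51 ± 0.23 in noodle-diet rats (SD, n = 4) and 1.37 ± 0.41 in control rats (SD, n = 5), and the difference of 0.15 did not pass (exact 2-sided permutation p = 0.548 over all splits of the rats; the smallest possible is 0.0079). Only the change of this quantity between rats is meaningful, since the probe sets bind with different strength.

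No relation of the granin genes with the hormones passed the test over all 9 rats. Pearson's r with Scg2 was -0.48 for Avp and -0.34 for Oxt, and with Vgf -0.38 and -0.045, while Scg2 and Vgf gave 0.32 (adjusted exact permutation p from 0.450 to 0.919 for these 5 pairs). Spearman's rho of Avp and Vgf was -0.77 (exact permutation p = 0.0214, adjusted 0.0934), and for the other 4 pairs it lay between -0.50 and 0.40. Without the 2 rats farthest from the median of the first gene, r was -0.31 for Avp with Vgf, -0.55 for Avp with Scg2, 0.15 for Oxt with Vgf, -0.38 for Oxt with Scg2 and 0.41 for Vgf with Scg2. The relations with Vgf depended on control rat 14. Without it r was -0.82 for Avp with Vgf and -0.83 for Oxt with Vgf, with an adjusted exact permutation p of 0.0188 for both.

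Among 936 variable probe sets with 1 symbol, those most like Avp over the 9 rats were Oxt, Kifc2 (a kinesin), Lynx1 (a modulator of nicotinic receptors), Vamp1 (a synaptic vesicle protein), Aldoc (a glycolytic aldolase) and Oip5-as1, with r from 0.87 to 0.79. Those most like Oxt were Vamp1, Avp, Kifc2, Plpp4 (a lipid phosphatase), Lynx1 and Thy1 (a surface glycoprotein of neurons), with r from 0.92 to 0.80. Kifc2, Vamp1 and Lynx1 are on both lists, and since Avp and Oxt vary together, shared genes follow partly from that. The most opposed to Avp were Ctdspl2, a phosphatase-like gene (-0.90), Rhoa (-0.84) and Csnk1a1 (-0.82), and to Oxt Rhoa (-0.90), Zfp36l1 (-0.89) and Hey2 (-0.89). Rhoa encodes a GTPase of the cytoskeleton, Zfp36l1 an mRNA decay factor and Hey2 a transcription factor of the Notch pathway. These values chose the genes and are a description.

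The range over the 9 rats was narrower in these genes than in the hormones. Vamp1 ranged over 0.085 log2 units, with 8.43, 8.50, 8.51 and 8.48 in noodle-diet rats 1, 4, 7 and 13, against 8.44, 8.47, 8.49, 8.47 and 8.51 in control rats 2, 5, 8, 11 and 14. Kifc2 ranged over 0.34, with 8.76, 9.06, 9.08 and 8.97 in noodle-diet rats 1, 4, 7 and 13, against 8.96, 9.01, 9.09, 8.91 and 9.03 in control rats 2, 5, 8, 11 and 14. Rat 1 was the lowest of the 9 for both. Rhoa ran the other way, with 10.04, 9.64, 9.46 and 9.74 in noodle-diet rats 1, 4, 7 and 13, against 9.83, 9.74, 9.61, 9.78 and 9.61 in control rats 2, 5, 8, 11 and 14. None of the genes named for likeness passed between diets (limma adjusted p = 0.999995 for each).

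**Figure D5:**
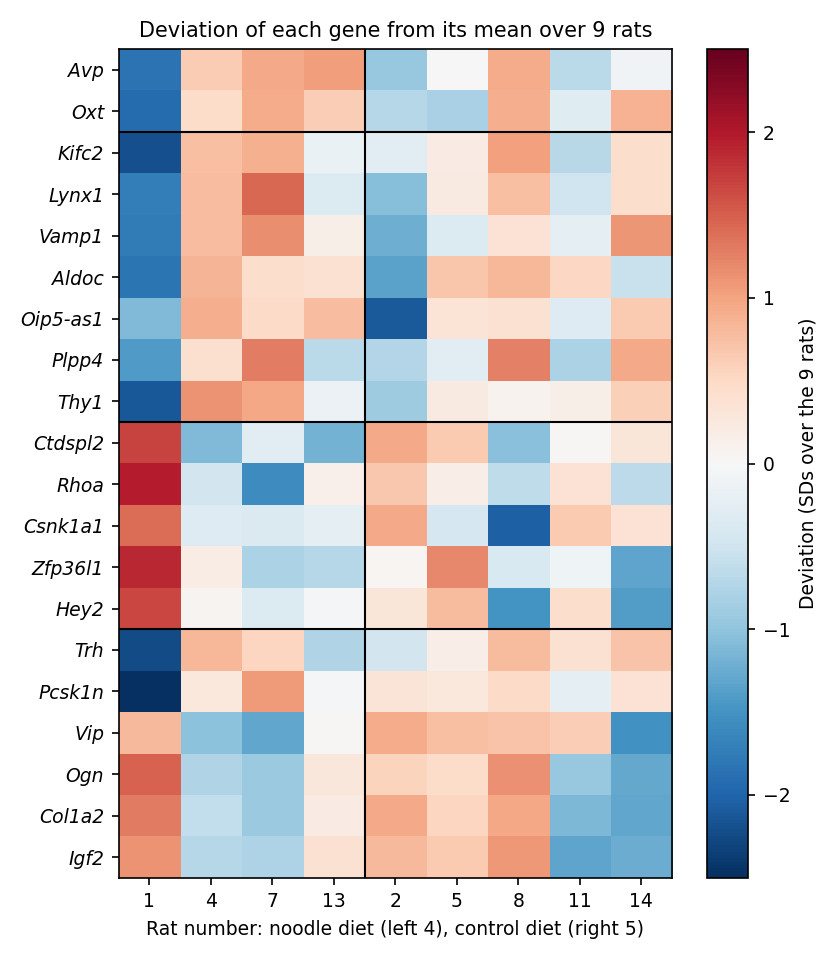
Deviation of each gene from its mean over the 9 rats, in SDs, with the noodle diet left and the control diet right; blocks from the top are Avp and Oxt, the genes most like either, those most opposed, and genes of the lists described in the text. Rat 1 is low across the upper 2 blocks and high across the third, while the meningeal genes Ogn, Col1a2 and Igf2 are high in rats 1, 2, 5 and 8. The genes most like or most opposed were chosen by their correlation over these 9 rats, so their readings in rat 1 follow partly from that choice.

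Further genes of this system came from 6 lists. Of their 83 genes, 76 were measured by 113 probe sets, of which 13, for 12 genes, were variable. By limma 0 of the 113 passed in either direction, 1 had an unadjusted p under 0.05, against 2.29% of all probe sets, and 1 had diets that did not overlap, against 0.567% of all. With 1 probe set, neither count is a result about the lists. Both are the same compressed probe set of Agtr1a, an angiotensin receptor, lower on the noodle diet by 0.00035 (limma unadjusted p = 0.0332, adjusted p = 0.999995). The median difference of all probe sets tested was -4.6e-06. Of all 31042 probe sets, 14913 read higher on the noodle diet, and of the 1223 variable ones 635 did.

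Of 15 probe sets for granule proteins and prohormone processing, 2 were variable and 9 read higher on the noodle diet (median 2.7e-05). Pcsk1n, an inhibitor of the prohormone convertase PC1, read 10.20, 10.54, 10.63 and 10.50 in noodle-diet rats 1, 4, 7 and 13, against 10.54, 10.54, 10.56, 10.47 and 10.55 in control rats 2, 5, 8, 11 and 14. Rat 1 was again the lowest. Cadps2, a vesicle priming factor, averaged 9.31 ± 0.14 in noodle-diet rats and 9.32 ± 0.059 in control rats (SD, n = 4 and 5).

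Of 12 probe sets for co-peptides and transmitter genes, 3 were variable and 4 read higher on the noodle diet (median -9.1e-05). Trh, the thyrotropin-releasing hormone of the paraventricular nucleus, read 8.39, 8.99, 8.93 and 8.68 in noodle-diet rats 1, 4, 7 and 13, against 8.74, 8.86, 8.98, 8.90 and 8.96 in control rats 2, 5, 8, 11 and 14, lowest in rat 1 as well. Cartpt and Apln, precursors of CART peptides and of apelin, differed by -0.025 and -0.0067 (SE 0.070 and 0.017). In rat 1 Cartpt was high (10.85), below noodle-diet rat 13 alone (10.88), while the variable probe set of Apln was lowest there (7.24). Of 23 probe sets for receptors and enzymes of the vasopressin, oxytocin and angiotensin systems 1 was variable, that of the apelin receptor gene Aplnr (6.39 ± 0.25 in noodle-diet rats and 6.41 ± 0.31 in control rats; SD, n = 4 and 5), and 11 read higher (median -9.9e-06). The probe sets of Avpr1a, Avpr1b, Avpr2 and Oxtr, the receptors of both hormones, were compressed.

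Of 29 probe sets for osmosensing, sodium transport and osmolytes, 17 read higher on the noodle diet (median 1.1e-05). All 4 variable ones, which cover 3 genes, were among these. Over all variable probe sets 635 of 1223 read higher. The counts of direction in the lists rest on few variable probe sets and were not tested. Scn7a, the sodium-level sensing channel of the brain, averaged 8.41 ± 0.12 in noodle-diet rats and 8.27 ± 0.21 in control rats (SD, n = 4 and 5), a difference of 0.14 (SE 0.11, limma adjusted p = 0.999995). The water channel gene Aqp4 had 2 variable probe sets, with differences of 0.12 and 0.059 (SE 0.14 and 0.054), and the chloride cotransporter gene Slc12a2 differed by 0.021 (SE 0.064). Of 19 probe sets for further genes known from salt loading or dehydration, 9 read higher (median -2.2e-05), and the 3 variable ones read lower. Sgk1, a kinase induced by corticosteroids, differed by -0.19 (SE 0.13), Egr1 by -0.14 and Fos by -0.057 (SE 0.15 for both), the last 2 being immediate early genes. None passed. The 15 probe sets for transcription factors of the paraventricular and supraoptic nuclei, led in range by Crem, Pou3f2 and Creb1, were all compressed, with 7 higher (median -7.1e-06).

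Markers of neighbouring cells and nuclei also differed between rats. Of 5 meningeal genes 9 of 12 probe sets were variable, and their mean deviation was 0.85, -0.37, -0.54 and 0.14 in noodle-diet rats 1, 4, 7 and 13, against 0.35, 0.28, 0.57, -0.60 and -0.68 in control rats 2, 5, 8, 11 and 14. It was highest in rat 1, where Avp and Oxt were lowest, and low in noodle-diet rat 7, where both were among the 3 highest. Control rat 14 had the lowest score, with Oxt among the 3 highest and Avp just below its median. In control rat 8 the score was next to highest and both hormones were among the 3 highest. Control rat 11 had a low score and a low Avp value. The log2 of their summed level ranged from 10.59 to 11.79 in noodle-diet rats and from 10.45 to 11.58 in control rats. Pearson's r of this score was -0.33 with Avp and -0.57 with Oxt, with Spearman's rho of -0.22 and -0.45, and without control rats 14 and 11, farthest from its median, r was -0.64 for both. The astrocyte score gave r of -0.17 with Avp and -0.57 with Oxt (rho -0.017 and -0.53), and without control rat 5 and noodle-diet rat 1 these were 0.53 and 0.13. The neuronal score rested on 3 variable probe sets of the neurofilament genes Nefm and Nefl. The other listed neuronal genes, Syt1, Snap25 and Tubb3, were compressed and did not enter it. This score gave r of 0.59 with Avp and 0.67 with Oxt (rho 0.48 and 0.67). Without control rat 2 and noodle-diet rat 4, farthest from its median, r was 0.50 and 0.77. Over 14 relations of Avp and Oxt with 7 marker scores the smallest adjusted exact permutation p was 0.376. Vip, a peptide of the suprachiasmatic nucleus, where part of the vasopressin is made, read 8.19, 6.56, 6.33 and 7.51 in noodle-diet rats 1, 4, 7 and 13, against 8.30, 8.15, 8.11, 8.01 and 6.15 in control rats 2, 5, 8, 11 and 14. Rat 1 had the highest Vip value of its diet. Of 5 probe sets for the transcription factors Sim1, Otp, Arnt2 and Pou3f2, which mark the paraventricular and supraoptic nuclei, 0 were variable, so the amount of these nuclei in each sample could not be read from them. The part of these markers in the Avp and Oxt values was not tested.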

How the data were processed

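The authors deposited 1 table of log2 values for 31099 probe sets of an Affymetrix rat expression array, 1 column per rat; their span of 5.13 to 13.7 is the basis for reading them as log2. Per the labels' protocols, RNA was isolated with TRIzol and an RNeasy kit, and 100 ng served for biotin-labelled cRNA. The sources used here do not give the probe-level summarization or the normalization. Values were used as deposited after 57 control probe sets were left out. Groups come from the sample titles. Names come from the platform's annotation, probe sets with 1 symbol only; all 10 member probe sets matched a table of rat genes (GRCr8) by gene number, and 9 of 9 genes had a promoter window.

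Diets were compared with limma 3.58.1 in R 4.3.3 (lmFit, then eBayes with its trend option, 2-sided, Benjamini-Hochberg adjustment over 31042 probe sets, threshold 0.05), tested first on simulated data. Differences are noodle diet minus control diet. Single values were compared by exact permutation over all splits of the rats, and correlations by exact permutation of pairings. Because every array comes from its own rat, the permutation p-values rest on animal-to-animal spread, and the number of arrays limits the precision. In limma that spread is combined with a variance estimated over all probe sets, most of them compressed. The limma SEs, p-values and intervals of the variable members therefore depend on compressed probe sets too. Fitted to variable probe sets alone, the SE was 0.29 for Avp and 0.41 for Oxt. The members, the lists and the limit of 0.05 on the range were chosen with earlier results of these data known. Genes named are all members, up to 3 of each list by range, and for Avp and Oxt the 6 most and 3 least alike; Agtr1a was named after its values were seen, and the hormone receptors for their role. Alternatives were quantile normalization, a common array median, no trend, array weights, a robust variance model, a filter on low means, averaged probe sets, linear means, permutation, each rat left out and, chosen after seeing the data, variable probe sets alone and, for the count of probe sets, averaged probe sets.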

Additional observations from a re-analysis of the deposited data

Results flagged for a closer look

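Of 46 groups tested (2 diets for each member probe set, for the Avp minus Oxt value and for the genes most like or opposed to the hormones), 5 had a rat set apart by a wide gap (Dixon's test, in which chance picks about 1 in 20 groups). That rate does not hold for the genes chosen for likeness, since they were picked for following or opposing the hormones over the same rats. Noodle-diet rat 1 gave 3 of the 5. Its Avp value was 10.49, against 11.64 to 11.84 in noodle-diet rats 4, 7 and 13, its Oxt value 8.66, against 10.21 to 10.52, and its value of Csnk1a1, a casein kinase gene picked as opposed to Avp, 10.12, against 9.98 to 9.99. In control rat 14, Vgf stood at 9.72 with the other 4 control rats at 9.49 to 9.53. A compressed probe set of Pdyn stood at 9.17503 in noodle-diet rat 13 with the others at 9.17469 to 9.17473.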

How the results depend on the processing

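By limma 0 probe sets passed under every alternative fit, 16 to 1155 at an unadjusted p under 0.05 in fits that hold all 31042. Avp kept its direction in every alternative (0.033 to 0.48 with 1 rat left out) and so did Vgf (-0.084 to -0.017). With 1 rat left out Oxt ran from -0.18 to 0.44 and Scg2 from -0.0021 to 0.086. Compressed probe sets turned sign: the common array median gave 3.3e-05 and 5.3e-05 for Pdyn, 3.3e-05 for Creb3l1, 4.3e-06 for Rasd1 and 1.4e-06 for Nos1, array weights gave 0.00010 and 5.2e-05 for Pdyn, and quantile normalization gave -0.0010 for Caprin2 and 0.00054 for Rasd1. With 1 rat left out these ran from -0.00017 to 8.9e-05 and from -7.9e-05 to 3.1e-05 (Pdyn), from -7.0e-05 to 4.9e-05 (Creb3l1), from -8.9e-05 to 4.6e-05 (Rasd1) and from -0.00012 to 1.6e-05 (Nos1). With 1 rat left out r ran from 0.75 to 0.94 for Avp with Oxt, from -0.82 to -0.32 for Avp with Vgf and from -0.83 to 0.13 for Oxt with Vgf. The cause was not tested. The Avp minus Oxt difference ran from 0.011 to 0.30. No paired analysis was made because the sources used here do not say which rats were fed as pairs. Each noodle-diet rat has a control rat with the next number, and whether these were pairs is not stated. Over all results, 228 alternative values kept direction and side of the threshold and 33 changed sign. The 5 that crossed the threshold are correlations with 1 rat left out: 3 of Avp with Oxt lost the call, and Avp with Vgf and Oxt with Vgf gained it without control rat 14. Outside this count, Spearman's rho of Avp with Oxt and their r without noodle-diet rats 1 and 13 also missed the threshold.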

Other observations

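The genes most like Scg2 and Vgf over the 9 rats were looked up after the values had been seen. Those most like Scg2 were Ate1 (arginyltransferase), Hacd3, Ap1s2 (a clathrin adaptor subunit), Nxph1 (neurexophilin), Pcnx4 and Dhx36 (an RNA helicase), with r from 0.97 to 0.93. Ate1 read 8.37, 8.32, 8.12 and 8.20 in noodle-diet rats 1, 4, 7 and 13, against 8.22, 8.05, 7.80, 8.28 and 8.36 in control rats 2, 5, 8, 11 and 14, and was lowest in control rat 8, like Scg2. The most opposed were Id1 (-0.88), Septin4 (-0.88) and Wscd1 (-0.88). In control rat 8 the oligodendrocyte score of 8 probe sets was the highest of the 9 rats (0.41), and its relation to Scg2 was not tested. Those most like Vgf were Gad1 (GABA synthesis), Pcdh20, Pgrmc1, Atp5pd, Trhr (the thyrotropin-releasing hormone receptor) and Glyr1, with r from 0.83 to 0.75, and the most opposed was Arhgef3 (-0.90). Gad1 read 10.84, 10.81, 10.83 and 10.81 in noodle-diet rats 1, 4, 7 and 13, against 10.82, 10.82, 10.69, 10.80 and 11.04 in control rats 2, 5, 8, 11 and 14, highest in control rat 14, like Vgf.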
